A study of Mus musculus with 12 samples.

Results

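Collagen chains are described here as they were measured in mouse tibialis anterior, a muscle of the lower leg, with and without induction of Dux, a transcription factor of the early mouse embryo. The chains were taken by name: every gene of the count table whose symbol is Col, a number, the letter a and a number. There were 36 of them among 12752 genes, 11 fibrillar chains, 7 chains of basement membranes and 18 others, and all 36 passed the filter on low counts. A further 8 chains of the mouse annotation were not analysed here, and the lowest mean of a gene in the table was 10 counts.

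The muscles came from male C57BL/6 mice that received AAV vectors at 8 weeks of age. All muscles carried AAV:TET, the regulator vector, together with either an empty vector, AAV:MCS (EV), or AAV:Dux in the opposite limb (DUX). From day 7 the mice ate normal chow (EV, DUX) or chow with 600 mg/kg doxycycline (EV_DOX, DUX_DOX). The labels name a further 2 or 7 days and do not say which applied to these muscles. There were 3 libraries in each of the 4 groups, made from 200 ng of poly-A RNA of whole muscle. The RNA thus included fibroblasts, vessels, nerve and any tendon left on the muscle, and a smaller number of cells of one type cannot be told apart from less RNA per cell. The promoters that drive the vectors are not stated in the labels, which also do not tie libraries to animals, so the p-values measure the spread between these libraries.

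Collagens are triple helices of 3 chains that are modified and assembled in the endoplasmic reticulum and secreted. Fibrillar types I, III and V form the banded fibres of connective tissue around muscle fibres, and type I dominates tendon. Type IV forms the network of the basement membrane that wraps each muscle fibre and capillary, and type VI forms beaded filaments just outside it. In muscle, interstitial fibroblasts make most of these chains.

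The largest change that passed the test was in Col8a1, a short network-forming chain known from vessel walls and the cornea, and a basement membrane chain, Col4a3, went the opposite way. The bases before the starts of these genes are shown because both passed the test in each comparison with induced muscle, and those of Col5a3, a minor fibrillar chain, because it rose in both as well. They are RefSeq sequences on GRCm38.p6, printed from 5′ to 3′ on the strand of the gene. Col8a1 (ENSMUSG00000068196) lies on chromosome 16, from 57624258 to 57754737 on the minus strand, and its window is chr16:57754738-57754987. Col5a3 (ENSMUSG00000004098) lies on chromosome 9, from 20770050 to 20815067 on the minus strand, with the window chr9:20815068-20815317, in which capitals mark a CCAAT box, a common promoter element. Col4a4 and Col4a3 (ENSMUSG00000067158 and ENSMUSG00000079465) are transcribed away from each other on chromosome 1, from 82448423 to 82586849 on the minus strand and from 82586921 to 82722059 on the plus strand, and the 71 bases between them, chr1:82586850-82586920, are printed on the strand of Col4a4.
Col8a1: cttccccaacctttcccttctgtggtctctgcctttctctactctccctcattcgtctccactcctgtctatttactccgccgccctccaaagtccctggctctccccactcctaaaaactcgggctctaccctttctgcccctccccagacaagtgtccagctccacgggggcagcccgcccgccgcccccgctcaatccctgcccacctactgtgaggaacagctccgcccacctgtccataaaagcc
Col5a3: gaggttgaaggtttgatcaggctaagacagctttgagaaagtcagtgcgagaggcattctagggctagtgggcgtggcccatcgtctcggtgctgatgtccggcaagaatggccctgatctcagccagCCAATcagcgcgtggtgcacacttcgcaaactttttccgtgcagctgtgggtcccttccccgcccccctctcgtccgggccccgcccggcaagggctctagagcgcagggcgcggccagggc
Col4a4-Col4a3: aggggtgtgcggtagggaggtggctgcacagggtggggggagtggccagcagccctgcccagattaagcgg

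RefSeq promoter windows, 300 bases each, were found for 28 of the 36 chains, and 3 sets of letters were searched on both strands. The AP-1 letters TGANTCA were found in 1 chain, Col6a1, against 7.79% of all windows. The CCAAT letters were found in 10 of the 28 chains, against 37.4% of windows, and TATAAA in 3, against 13.6%. The 28 chains had 31 windows, so counts of chains are set here beside shares of single windows. These searches describe the letters in these windows, and a missing match draws nothing about the factor.

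Depth was even, from 11880593 counts (DUX_DOX 3) to 13811999 counts (DUX 1) per library. Collagen chains took from 0.17% to 0.62% of the library size after TMM scaling. Dux was not analysed here. AW822073, the transcript beside it, summed to 0 counts in EV, 1 in EV_DOX, 3 in DUX and 143 in DUX_DOX, and Tmem92, a gene that Dux turns on in embryonic cells, to 2, 2, 8 and 4832 counts, so both set DUX_DOX apart. The 8 muscle fibre markers, such as Ckm and Acta1, summed to between 132047 and 176326 CPM (library-scaled counts, TMM) in every library, as the tissue label says.

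Levels were compared between genes per length, as CPM per kilobase of the main transcript, averaged over the 12 libraries. Col3a1 stood highest at 134 CPM per kb, followed by the 2 chains of type I, Col1a2 at 120 and Col1a1 at 107. The basement membrane chains Col4a1 and Col4a2 came next at 53.4 and 43.0, and then the type VI chains Col6a2 and Col6a1 at 40.2 and 36.5. The spread over libraries was wide, with Col1a1 alone from 211 to 1609 CPM, and the ranges of these neighbours overlapped. Col15a1, a muscle and capillary basement membrane chain, had 17.2 CPM per kb, Col6a3 14.5 and the minor fibrillar chains Col5a3, Col5a2 and Col5a1 12.6, 10.7 and 10.1. All remaining chains were below 4, down to 0.0943 CPM per kb for Col6a5.

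Ratios between chains of the same type were steady for some pairs and not for others. The ratio of Col1a1 to Col1a2 per kb ranged only from 0.805 to 1.04 over the 12 libraries, that of Col4a1 to Col4a2 from 1.13 to 1.36 and that of Col6a1 to Col6a2 from 0.852 to 0.984. The ratio of Col6a1 to Col6a3, the third chain of type VI, varied more, from 2.06 to 3.17, as did that of Col5a1 to Col5a2, from 0.786 to 1.23. The pair of type VIII varied most of those computed, with a ratio of Col8a1 to Col8a2 from 1.17 to 40.9. The ratio of Col1a1 to Col3a1, chains of different types, did not stay steady either. It was 1.85 in EV 3 and 1.94 in EV_DOX 1 and between 0.492 and 0.664 in the other 10 libraries.

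EV 3 and EV_DOX 1 had the highest levels of tendon markers. The 9 tenocyte markers, all measured, summed to 1089 CPM in EV 3 and 1023 CPM in EV_DOX 1. In EV 1 and EV 2 the sum was 317 and 187 CPM and in EV_DOX 2 and EV_DOX 3 212 and 138 CPM, while it ranged from 108 to 185 CPM in DUX and from 246 to 331 CPM in DUX_DOX. Type I took 55.7% of the collagen CPM in EV 3 and 53.3% in EV_DOX 1, against 24.6% to 32.4% in the other 10 libraries, and the summed collagen level was highest in the same 2 libraries, at 5798 and 6163 CPM. The lowest sums were 1666 CPM in EV_DOX 3 and 2103 CPM in EV 2, so both empty-vector groups spanned a wider range than DUX (2341 to 3244 CPM) or DUX_DOX (3279 to 4218 CPM).

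**Figure D1:**
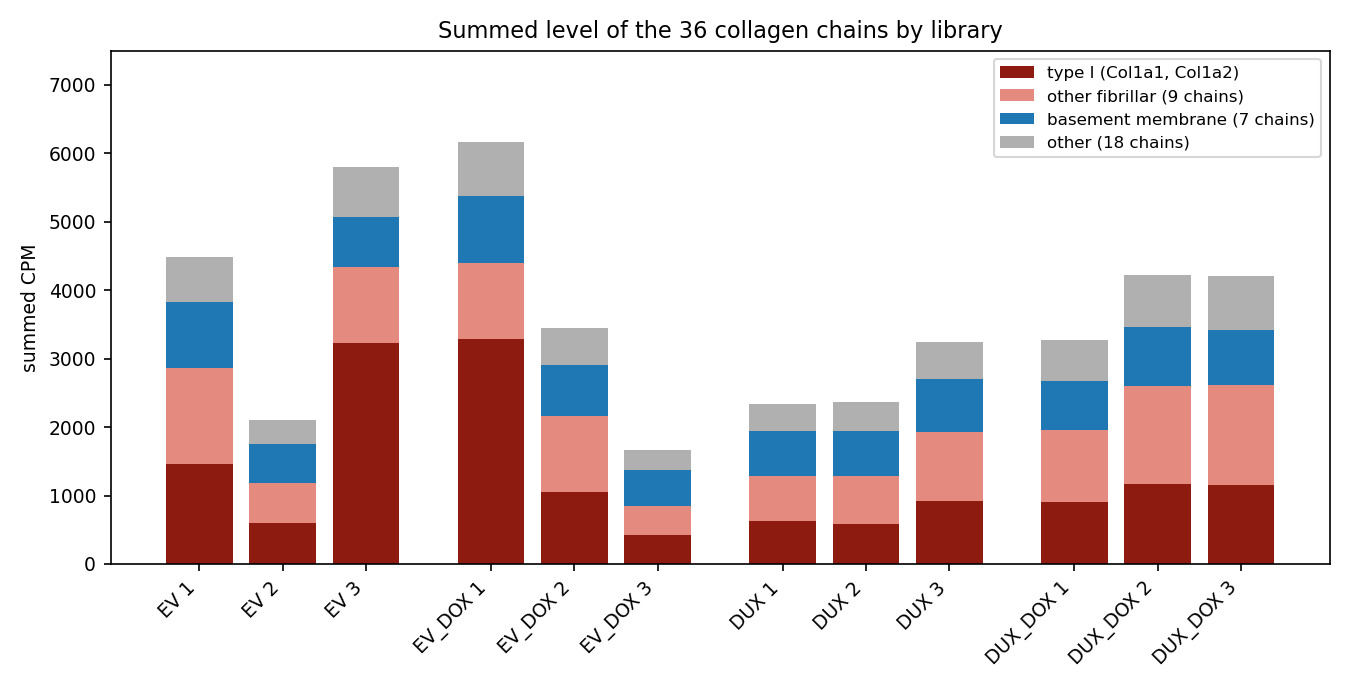
Summed CPM of the 36 collagen chains in each of the 12 libraries (bars stacked by type I, other fibrillar, basement membrane and other chains). Type I makes up 55.7% and 53.3% of the bar in EV 3 and EV_DOX 1 and at most 32.4% in the others, and the empty-vector groups span 1666 to 6163 CPM.

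The excess in those 2 libraries differed between classes. A chain was set against the mean of the other libraries of its group, and 8 of 36 chains were over 2-fold higher in both EV 3 and EV_DOX 1, as were 0.66% of all genes. They were Col11a2 (4.94-fold in EV 3 and 5.83-fold in EV_DOX 1), Col11a1 (4.19 and 7.49), Col2a1 (3.34 and 14.8), Col1a1 (3.20 and 4.36) and Col1a2 (3.11 and 4.57) among the fibrillar chains, and Col8a2 (3.84 and 6.35), Col12a1 (2.95 and 7.90) and Col13a1 (2.90 and 2.77) among the others. Types II and XI are known from cartilage, and type XII sits on the surface of type I fibrils in tendon. Col9a1, grouped with types II and XI as a cartilage-type chain, went the other way (0.84 in EV 3 and 0.29 in EV_DOX 1). Col14a1, fibril-associated like Col12a1, was at 0.92 and 1.57. Col2a1 had 31 counts in EV 3, 55 in EV_DOX 1 and from 2 to 11 in the other libraries of those groups. Col3a1, at 1.07 and 1.34, was nearly level, and 0 of 7 basement membrane chains were over 2-fold higher in both. These ratios are a description, since the libraries had been chosen for their tendon markers.

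**Figure D2:**
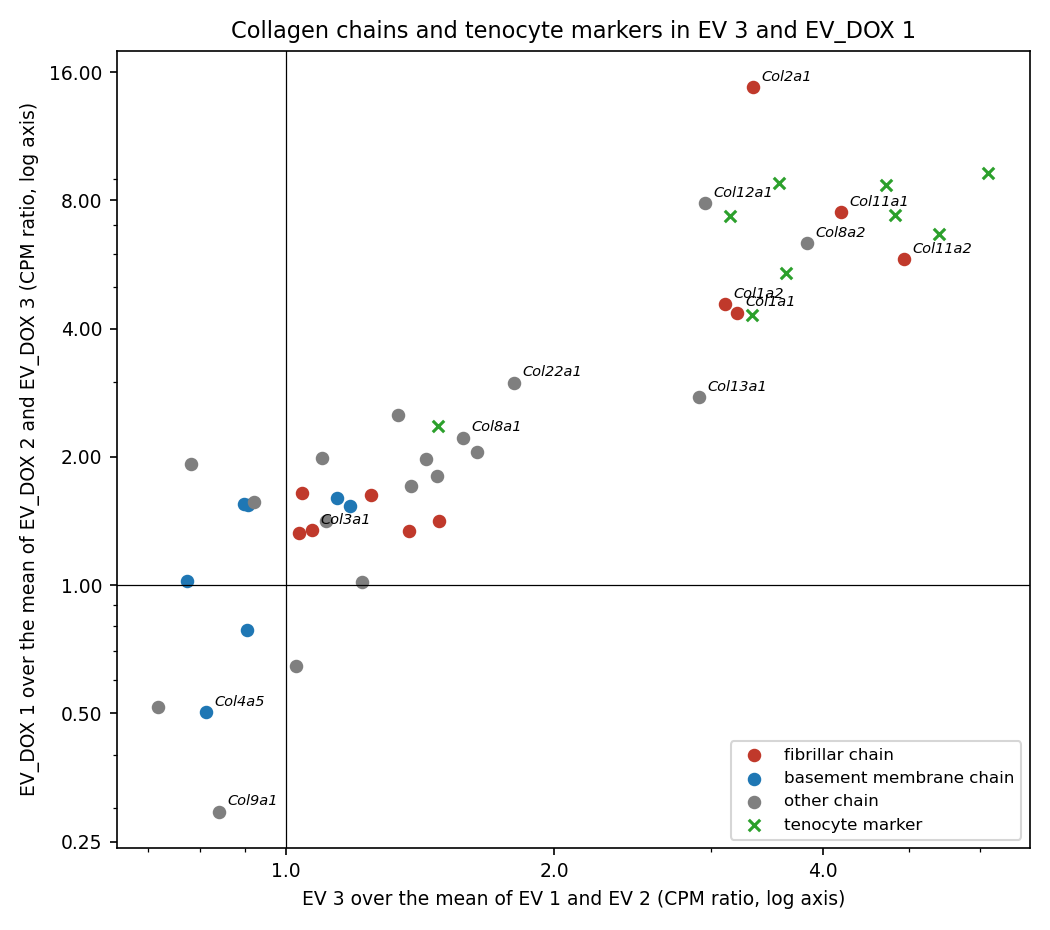
Ratio of CPM in EV 3 to the mean of EV 1 and EV 2 (x axis, log scale) against that in EV_DOX 1 to the mean of EV_DOX 2 and EV_DOX 3 (y axis, log scale) for the 36 chains, coloured by class, and 9 tenocyte markers (crosses). Type I, XI and XII chains lie among the tenocyte markers. Col2a1 lies above all 9 of them on the y axis (14.8 against at most 9.27). That ratio rests on few counts (55, 5 and 2 in EV_DOX 1 to 3). The basement membrane chains lie between 0.50 and 1.60.

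The first comparison, DUX_DOX against EV_DOX, asks what the Dux vector did under doxycycline chow. Col8a1 rose 5.68-fold, the minor fibrillar chains Col5a3 and Col27a1 and the fibril-associated chain Col20a1 rose by less, and Col4a3, Col7a1, Col6a5 and Col24a1 fell. That made 4 chains higher and 4 lower of 36 tested (adjusted p below 0.05, edgeR's quasi-likelihood test, adjusted over all 12751 genes tested), where 14.9% of all genes were higher and 10.3% lower, so the family as a whole stood close to the background. The median log2 fold change was -0.22 over the 36 chains, -0.48 over the fibrillar, 0.06 over the basement membrane and -0.22 over the other chains, beside -0.0053 over all genes. DUX_DOX did not overlap EV_DOX in 10 chains, 5 above and 5 below, against 21.4% and 17.3% of all genes.

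Leaving out EV 3 and EV_DOX 1 changed which chains were called. Then 7 of 35 chains were higher and 1 was lower, against 14.5% and 10.1% of all genes, and the medians were 0.32 over all chains, 0.69 over the fibrillar, 0.31 over the basement membrane and 0.26 over the other chains. Of the 8 chains called with all libraries, 4 were called here too (Col8a1, Col5a3, Col27a1 and Col4a3), while Col20a1, Col7a1, Col24a1 and Col6a5 were not and Col5a2, Col6a1, Col6a2 and Col6a3 were added. With the mean log2 level of the tenocyte markers as a covariate, 11 chains were higher and 5 lower, against 17.5% and 13.0% of all genes, and the median was 0.20 over all chains and 0.36 over the fibrillar. Macrophage markers moved with the comparison: 14 of 14 rose in the fit with all libraries, against 14.9% of all genes. Their sum went from 102 to 141 CPM in EV_DOX to 259 to 379 CPM in DUX_DOX, with none at 0. Cd68, Itgam and Lyz2 had the smallest p, with log2 fold changes of 2.78, 2.37 and 1.17. The part of the macrophage and tenocyte markers in the collagen results was not tested beyond these fits.

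**Figure D3:**
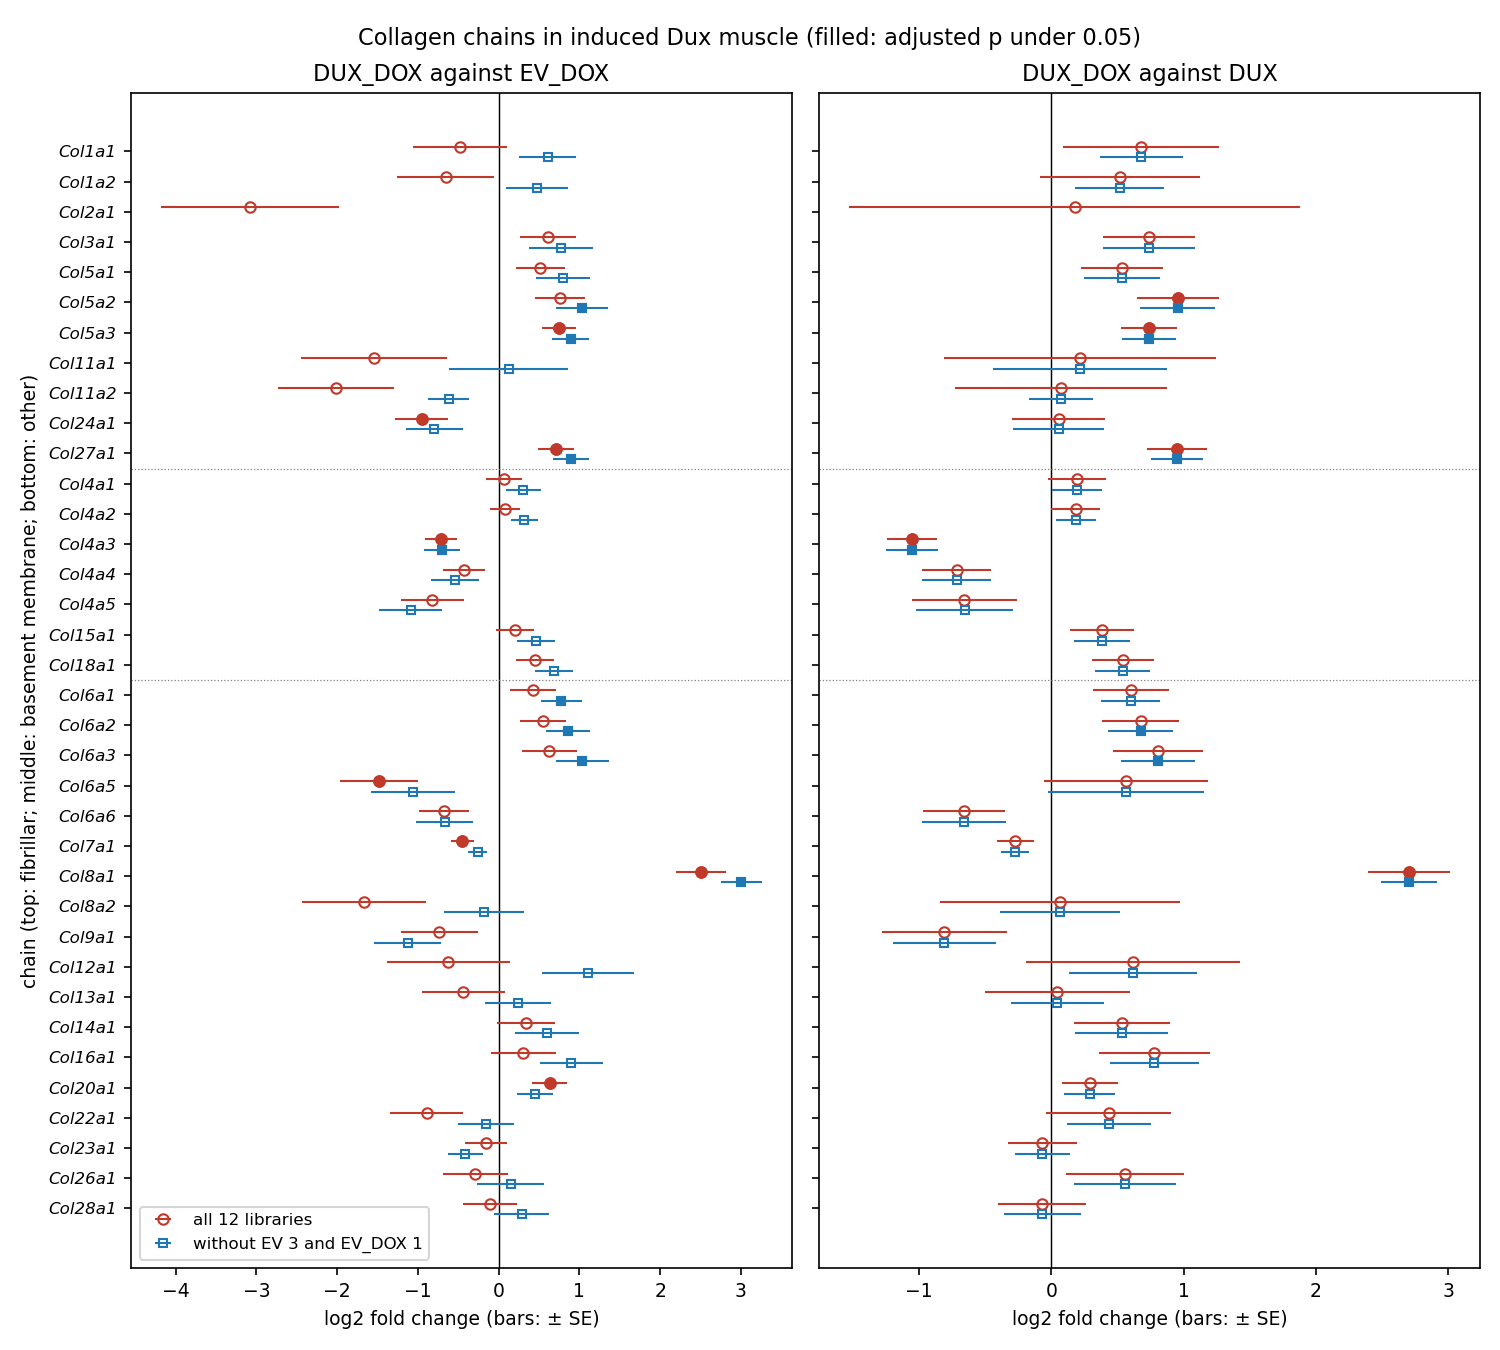
Log2 fold changes (x axis, with bars of 1 SE) of the 36 chains in DUX_DOX against EV_DOX and against DUX, fitted with all 12 libraries (circles) and without EV 3 and EV_DOX 1 (squares), with filled symbols for adjusted p below 0.05. Col8a1 lies at 2.51 to 3.00 in all 4 fits, and Col1a1 moves from -0.48 to 0.61 in the left panel.

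Among the fibrillar chains, Col5a3 encodes the less common chain of type V, a collagen that limits the diameter of fibrils. Col5a3 stood at 77.3, 77.5 and 39.5 CPM in EV_DOX 1 to 3, at 59.4, 64.9 and 70.8 CPM in DUX 1 to 3 and at 103, 112 and 111 CPM in DUX_DOX 1 to 3. In EV it was 85.1, 51.1 and 70.4 CPM, so all 3 DUX_DOX libraries lay above the other 9. It rose by 0.74 (log2, SE 0.21, adjusted p = 0.019) against EV_DOX, and the call was lost without DUX_DOX 2 or DUX_DOX 3.

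Col27a1, a fibrillar chain of developing cartilage, was rare. It had 3.58, 2.87 and 2.19 CPM in EV_DOX, 3.14, 2.24 and 3.99 in EV and 2.69, 2.54 and 2.09 in DUX, while DUX_DOX had 4.49, 5.08 and 4.56 CPM. Again every DUX_DOX library was above all others. The log2 difference from EV_DOX was 0.71 (SE 0.22, adjusted p = 0.0314), and 15 of 22 alternative fits kept the call.

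Col5a2, the second chain of the main type V molecule, stood at 79.8, 67.1 and 31.1 CPM in EV_DOX and 87.6, 98.8 and 115 CPM in DUX_DOX. The groups did not overlap, but the difference of 0.76 (SE 0.31) did not pass the test (adjusted p = 0.0867), and without EV 3 and EV_DOX 1 it was 1.03 (adjusted p = 0.0341). Col5a1, its partner, differed by 0.52 (adjusted p = 0.239). Col24a1, a fibrillar chain of bone and cornea, fell by 0.95 (SE 0.33, adjusted p = 0.0476). Its levels were 9.86, 5.89 and 8.84 CPM in EV_DOX and 4.42, 4.65 and 3.63 CPM in DUX_DOX, and DUX, at 5.53, 2.69 and 4.03 CPM, was as low as DUX_DOX.

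The abundant fibrillar chains gave no call. Col1a1 was 1609, 527 and 211 CPM in EV_DOX and 484, 620 and 583 CPM in DUX_DOX, so the DUX_DOX libraries lay within the range of EV_DOX. Col1a2 was 1674, 526 and 207 CPM against 419, 544 and 566 CPM. The log2 difference of Col1a1 was -0.48 (SE 0.59, adjusted p = 0.587) with all libraries and 0.61 (adjusted p = 0.231) without EV 3 and EV_DOX 1. That of Col1a2 went from -0.66 to 0.47. The direction of type I depended on the single library EV_DOX 1, since leaving out that library alone gave 0.61 and 0.47. EV 3 is not part of this comparison. Col3a1, at 778, 850 and 309 CPM in EV_DOX and 762, 1087 and 1111 CPM in DUX_DOX, differed by 0.61 (SE 0.35, adjusted p = 0.218) and by 0.77 (adjusted p = 0.179) without them. Col2a1, Col11a1 and Col11a2, the fibrillar cartilage-type chains, had log2 differences of -3.08, -1.54 and -2.01 that did not pass the test (adjusted p = 0.0537, 0.231 and 0.054). Without the tendon-rich libraries Col11a1 was at 0.12 and Col11a2 at -0.62, and Col2a1 no longer passed the filter on low counts.

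Of the basement membrane chains, Col4a3 changed. With Col4a4 and Col4a5 it builds the type IV network of the kidney filter, and in mouse muscle these chains are found at the neuromuscular junction. Col4a3 was 3.50, 3.49 and 3.36 CPM in EV_DOX, 4.78, 5.13 and 3.84 in EV, 5.22, 4.08 and 3.81 in DUX and 1.83, 2.36 and 2.09 CPM in DUX_DOX. All 3 DUX_DOX libraries lay below the other 9, and Col4a3 fell by 0.72 (log2, SE 0.20, adjusted p = 0.016), with 21 of 22 alternative fits keeping the call (it was lost without DUX_DOX 1). A non-coding transcript on the opposite strand, C430014B12Rik, covers 5.65% of its exon length, and the strand setting of the counting is not given in the sources used here.

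Col4a4 and Col4a5 were low as well and did not pass the test. Their log2 differences were -0.43 (adjusted p = 0.255) and -0.82 (adjusted p = 0.139). The main basement membrane chains were abundant, Col4a1 with 465, 360 and 241 CPM in EV_DOX and 327, 417 and 370 CPM in DUX_DOX, and Col4a2 with 367, 270 and 207 CPM and 277, 319 and 296 CPM, all DUX_DOX libraries within the range of EV_DOX. They differed by 0.06 (SE 0.22, adjusted p = 0.86) and 0.08 (SE 0.18, adjusted p = 0.787) and by 0.31 and 0.32 without the tendon-rich libraries, again with no call. Col15a1 was 115, 85.7 and 57.7 CPM in EV_DOX and 86.7, 104 and 106 CPM in DUX_DOX and differed by 0.20 (adjusted p = 0.574). Col18a1, the source of the fragment endostatin, differed by 0.45 (adjusted p = 0.177).

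Among the other chains, Col8a1 stood apart. Its level was 9.17, 4.81 and 11 CPM in EV, 10.9, 6.12 and 3.68 CPM in EV_DOX, 6.09, 5.62 and 6.43 CPM in DUX and 35.7, 34.1 and 48.5 CPM in DUX_DOX. The lowest DUX_DOX library was thus far above the highest of the other 9, and EV 3 and EV_DOX 1 were the highest of those. Col8a1 rose by 2.51 (log2, SE 0.30, adjusted p = 4.31e-05), by 3.00 (adjusted p = 2.56e-06) without the tendon-rich libraries, and all 22 alternative fits kept the call, with adjusted p from 4.03e-09 to 0.000463. Its share of the collagen CPM was between 0.809% and 1.15% in DUX_DOX and between 0.176% and 0.26% in the other groups. Col8a2, with which it forms hexagonal networks in the cornea, did not follow, and the ratio of Col8a1 to Col8a2 per kb was 23.8 to 40.9 in DUX_DOX and 1.17 to 8.84 elsewhere.

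**Figure D4:**
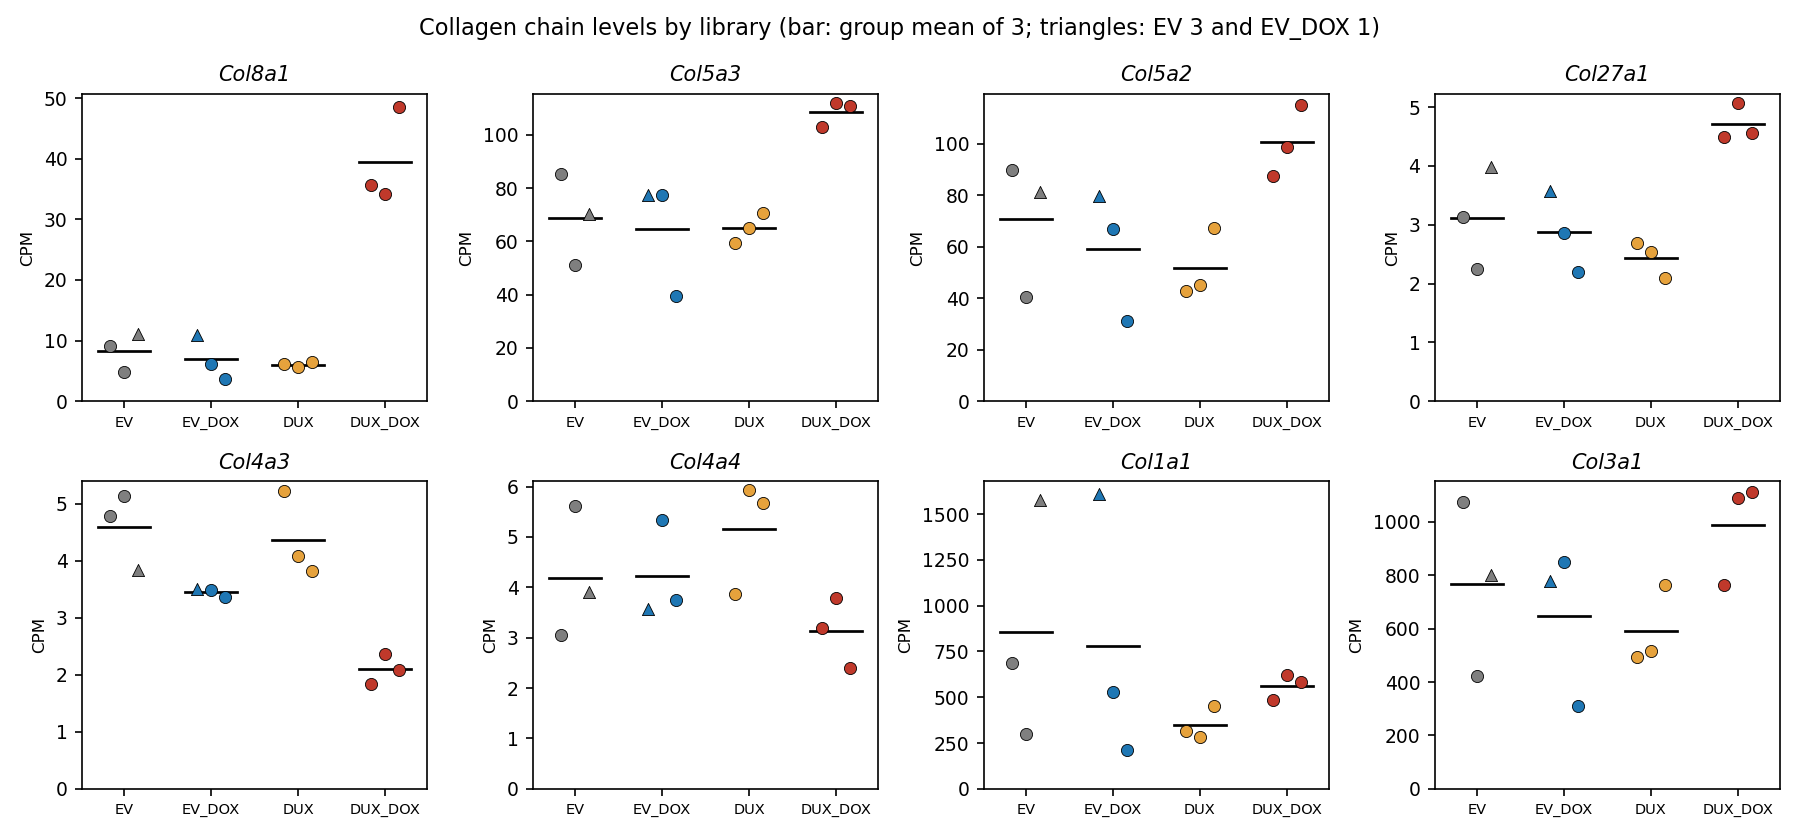
CPM of 8 chains in each library (y axes from 0), by group, with the group mean of 3 libraries as a bar and EV 3 and EV_DOX 1 as triangles. DUX_DOX lies above all other libraries for Col8a1, Col5a3 and Col27a1 and below them for Col4a3, and the triangles stand apart for Col1a1 only.

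Type VI is the collagen whose loss causes muscular dystrophy in humans. Its abundant chains Col6a1, Col6a2 and Col6a3 were not called with all 12 libraries and were called without the tendon-rich ones. Col6a1 was 199, 145 and 75.6 CPM in EV_DOX and 155, 195 and 216 CPM in DUX_DOX, Col6a2 199, 158 and 75.0 against 170, 220 and 243 CPM, and Col6a3 166, 115 and 52.4 against 145, 187 and 185 CPM. The groups overlapped for all 3 chains, since EV_DOX 1 was within the range of DUX_DOX. Log2 differences were 0.43, 0.55 and 0.63 (adjusted p = 0.291, 0.177 and 0.194) with all libraries and 0.77, 0.86 and 1.04 (adjusted p = 0.0409, 0.0375 and 0.0325) without EV 3 and EV_DOX 1. That fit keeps only EV_DOX 2 and EV_DOX 3 of their group, and EV_DOX 3 was the lowest for all 3 chains. With 1 library left out, the differences ranged from 0.13 to 0.77 for Col6a1, 0.24 to 0.86 for Col6a2 and 0.29 to 1.04 for Col6a3. Col6a5, a rare alternative chain, fell by 1.48 (SE 0.48, adjusted p = 0.0373). It had 2.41, 0.775 and 1.64 CPM in EV_DOX and 0.229, 0.715 and 0.773 CPM (3, 10 and 10 counts) in DUX_DOX. DUX, at 0.553, 0.154 and 0.448 CPM, was as low as DUX_DOX, and 13 of 22 alternative fits kept the call. Col6a6 differed by -0.67 (adjusted p = 0.128).

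Col20a1, a fibril-associated chain, had 3.65, 6.04 and 5.24 CPM in EV_DOX and 6.17, 7.72 and 9.20 CPM in DUX_DOX. The groups were barely apart, the rise was 0.63 (SE 0.22, adjusted p = 0.046), and 10 of 22 alternative fits kept the call. Col7a1, which forms anchoring fibrils under the skin, fell by 0.45 (SE 0.14, adjusted p = 0.0289), from 35.8, 24.6 and 25.8 CPM to 20.8, 23.2 and 19.1 CPM. EV_DOX 1 was the highest of these, and without it and EV 3 the difference was -0.26 (adjusted p = 0.129). Against DUX, which overlapped DUX_DOX at 29.0, 24.9 and 22.6 CPM, Col7a1 differed by -0.28 (adjusted p = 0.153). Col22a1, a chain of the junction between muscle and tendon, was 56.9, 20.9 and 17.1 CPM in EV_DOX and 18, 21 and 12.2 CPM in DUX_DOX, with EV_DOX 1 far above the rest. It differed by -0.89 (adjusted p = 0.163), or -0.15 without the tendon-rich libraries, and Col12a1 by -0.62 (adjusted p = 0.585), or 1.11 without them. Col13a1, a membrane-bound chain of the neuromuscular junction, was 2.04, 0.852 and 0.626 CPM in EV_DOX and 1.07, 0.787 and 0.773 CPM in DUX_DOX and differed by -0.44 (adjusted p = 0.574). The other 7 chains of this class (Col8a2, Col9a1, Col14a1, Col16a1, Col23a1, Col26a1 and Col28a1) lay between -1.66 and 0.34, with no call.

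The second comparison, DUX_DOX against DUX, sets the 2 chows against each other within the Dux vector and holds neither tendon-rich library. Col8a1, Col27a1, Col5a3 and Col5a2 rose and Col4a3 fell, 4 chains higher and 1 lower of 36, where 16.5% of all genes were higher and 13.1% lower. All 11 fibrillar chains had a positive log2 fold change, with a median of 0.53, the median over the basement membrane chains was 0.18 and over the other chains 0.48, beside 0.01 over all genes. DUX_DOX lay wholly above DUX in 11 chains and wholly below in 3, against 25.9% and 22.6% of all genes. The sum of the tenocyte markers moved the same way as the fibrillar chains, from 108 to 185 CPM in DUX to 246 to 331 CPM in DUX_DOX. With all libraries 0 of 9 were called, and 0 had an unadjusted p below 0.05, against 41.5% of all genes. Without EV 3 and EV_DOX 1 in the fit, 4 of 9 rose. Their part in the result was not tested beyond the covariate fit, which called 4 chains higher and 3 lower (16.4% and 13.5% of all genes). That fit took the fibrillar median from 0.53 to 0.03, with 6 fibrillar chains above zero and 5 below. Macrophage markers moved here too: 10 of 14 rose, and their sum was 153 to 171 CPM in DUX and 259 to 379 CPM in DUX_DOX. Of the 8 fibre markers 2 fell, Myh1 and Atp2a1 (5 were called with DESeq2 and 3 with limma-voom), and their sum was 157051 to 176326 CPM in DUX and 132047 to 148470 CPM in DUX_DOX. The part of these in the result was not tested. Without EV 3 and EV_DOX 1 in the fit, Col6a2 and Col6a3 were added, 6 chains higher and 1 lower, against 17.9% and 14.7% of all genes.

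This result depended on which libraries gave the spread. Fitted on DUX and DUX_DOX alone, 15 chains were higher and 5 lower, against 19.0% and 16.5% of all genes. The 11 chains added among the higher were Col1a1, Col1a2, Col3a1, Col5a1, Col6a1, Col6a2, Col6a3, Col14a1, Col15a1, Col16a1 and Col18a1, and the 4 added among the lower were Col4a4, Col4a5, Col6a6 and Col9a1. With all 12 libraries the empty-vector groups, which vary most in these chains, share in the estimate of spread.

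Col8a1 rose by 2.70 (SE 0.31, adjusted p = 2.53e-05) against DUX, Col27a1 by 0.95 (SE 0.23, adjusted p = 0.00658), Col5a3 by 0.74 (SE 0.21, adjusted p = 0.0173) and Col5a2 by 0.95 (SE 0.31, adjusted p = 0.0324). Col4a3 fell by 1.06 (SE 0.19, adjusted p = 0.00106). The calls of Col8a1, Col27a1 and Col4a3 were kept in all 21 alternative fits, that of Col5a3 in 17 and that of Col5a2 in 16. Col4a4, which shares its start region with Col4a3, was 3.87, 5.92 and 5.68 CPM in DUX and 3.20, 3.79 and 2.40 CPM in DUX_DOX, a difference of -0.72 (SE 0.26) that just missed the threshold (adjusted p = 0.0503). Type I differed by 0.68 for Col1a1 (SE 0.59, adjusted p = 0.411) and 0.52 for Col1a2 (SE 0.61, adjusted p = 0.554), with Col1a1 at 318, 285 and 450 CPM in DUX. Col3a1 differed by 0.74 (SE 0.35, adjusted p = 0.126), and the type VI trio by 0.60, 0.67 and 0.80 (adjusted p = 0.129, 0.0924 and 0.0908). The comparison shares the DUX_DOX libraries with the first.

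The vector without doxycycline, DUX against EV, gave 0 called chains with edgeR, DESeq2 and limma-voom, where 0.0% of all genes were higher and 0.0% lower with edgeR, 0.0% and 0.0% with limma-voom and 0.471% and 0.729% with DESeq2. At an unadjusted p below 0.05, 9 of 36 chains differed, 1 higher and 8 lower, against 7.71% and 8.07% of all genes. All 11 fibrillar chains had a negative log2 fold change, with a median of -1.28, or -0.40 for the 10 tested without the tendon-rich libraries. The direction turned with the tenocyte covariate, where the fibrillar median was 0.19, with 9 chains above zero and 2 below, and 27 of all 36 chains were above zero. The 9 tenocyte markers had a median of -2.15 in this comparison, and 8 of them passed an unadjusted p below 0.05. Col1a1 differed by -1.28 with all libraries and by -0.49 without the tendon-rich ones (adjusted p = 0.314 and 0.596). DUX lay wholly below EV in 3 chains (Col26a1, Col2a1 and Col6a5) and above it in 0, against 11.6% and 11.3% of all genes.

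The chow alone, EV_DOX against EV, also gave 0 called chains with edgeR, DESeq2 and limma-voom, where 0.0392% of all genes were higher and 0.0% lower with edgeR, 0.0% and 0.0% with limma-voom and 0.0863% and 0.00784% with DESeq2. At an unadjusted p below 0.05, 1 chain of 36 differed, against 7.83% of all genes. It was Col4a3, with a log2 difference of -0.41 (SE 0.18, adjusted p = 0.615), and it was the only chain of 36 in which the groups did not overlap, below in EV_DOX, against 6.45% of all genes (0 chains lay wholly above, against 5.69%). Each of these groups holds 1 of the tendon-rich libraries. Col8a1 differed by -0.27 (adjusted p = 0.86).

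The interaction asks whether the effect of the Dux vector differed between the chows. It was called for Col8a1 alone, 1 chain higher and 0 lower, against 6.97% and 3.43% of all genes. The log2 value was 2.97 (SE 0.45, adjusted p = 0.000851), since DUX differed from EV by -0.47 on normal chow and by 2.51 on doxycycline chow, and all 21 alternative fits kept it. At an unadjusted p below 0.05, 6 chains were higher and 1 lower of 36, close to or below the 14.9% and 12.1% of all genes. Col27a1 had 1.07 (SE 0.33, adjusted p = 0.0513), Col5a2 1.21 (adjusted p = 0.0923), Col5a3 0.83 (adjusted p = 0.0906) and Col4a3 -0.65 (adjusted p = 0.129), so a difference between the chows was not shown for them.

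Enzymes and chaperones that modify, fold and crosslink collagen were read beside the chains. In DUX_DOX against EV_DOX 6 of 30 measured rose and 0 fell (14.9% and 10.3% of all genes), and 12 rose without the tendon-rich libraries (14.5% of all genes), with a median log2 fold change of 0.29 (0.41 without them). At an unadjusted p below 0.05, 10 of 30 differed, fewer than the 37.8% of all genes, and DESeq2 called 5 and limma-voom 6. Plod2, which hydroxylates the lysines used in stable crosslinks, was 3.80, 3.87 and 3.29 CPM in EV_DOX and 7.47, 8.08 and 10.1 CPM in DUX_DOX, with no overlap, and rose by 1.22 (SE 0.19, adjusted p = 0.000341). Loxl1, a lysyl oxidase, rose by 1.10 (SE 0.20, adjusted p = 0.00122), from 23.1, 18.9 and 11.6 CPM to 33.0, 35.5 and 47.1 CPM. P4ha1 and P4hb, the subunits of prolyl hydroxylase, rose by 0.51 (adjusted p = 0.00196) and 0.39 (adjusted p = 0.00303), and the chaperones Ppib and Serpinh1 by 0.34 (adjusted p = 0.0194) and 0.69 (adjusted p = 0.0364).

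Against DUX, 11 of 30 rose and 0 fell, against 16.5% and 13.1% of all genes (11 were called with DESeq2 and 11 with limma-voom). At an unadjusted p below 0.05, 15 of 30 differed, against 41.5% of all genes. The 11 that rose at the adjusted threshold were the same 6 genes and Lox, Loxl2, Plod3, P3h1 and Fkbp10. Lox, the main crosslinking oxidase, was 6.33, 7.16 and 9.41 CPM in DUX and 31.4, 28.7 and 40.5 CPM in DUX_DOX, and rose by 2.13 (SE 0.57, adjusted p = 0.0128). In EV_DOX it ranged from 5.24 to 31.5 CPM, with EV_DOX 1 the highest.

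Partners and receptors were read in DUX_DOX against EV_DOX, where 14.9% of all genes were higher and 10.3% lower. Without the tendon-rich libraries these shares were 14.5% and 10.1%. Of 10 fibril-binding proteoglycans and partners 1 rose against EV_DOX, Bgn (biglycan), by 1.07 (SE 0.27, adjusted p = 0.0114), from 132, 87.8 and 62.8 CPM to 176, 169 and 247 CPM. Of 9 collagen receptors 2 rose (4 without the tendon-rich libraries), Itgb1, the shared integrin chain, by 0.51 (adjusted p = 0.000759) and Lair1, a receptor of immune cells, by 1.36 (adjusted p = 0.00782). Of 13 laminins and other basement membrane partners read here 1 passed the test, Lamb3, a laminin chain of epithelia, which fell by 0.76 (SE 0.24, adjusted p = 0.0322), from 2.63, 2.56 and 2.97 CPM to 1.98, 1.36 and 1.47 CPM. DESeq2 called 0 members of this list, and without the tendon-rich libraries 0 fell and 1 rose.

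Markers of the cells that could carry these RNAs were counted in DUX_DOX against EV_DOX. There 14.9% of all genes were higher and 10.3% lower (14.5% and 10.1% without the tendon-rich libraries), and 37.8% had an unadjusted p below 0.05. None of the 9 tenocyte markers passed the test (0 at an unadjusted p below 0.05, 0 with DESeq2 and 0 with limma-voom), with a median of -1.29, or 0.43 and 1 gene higher without the tendon-rich libraries. Of 11 fibro-adipogenic markers 3 rose, Mfap5 by 1.77, Fbn1 by 1.00 and Ly6a by 0.65 (log2). Their median over all 11 was 0.13, and 3 had an unadjusted p below 0.05. The sum of the 11 was 266 to 490 CPM in EV_DOX and 455 to 610 CPM in DUX_DOX. Of 11 endothelial markers 1 fell, Kdr, with sums of 630 to 681 and 586 to 599 CPM, and of 9 pericyte and smooth muscle markers 1 rose, Tagln (3 were called with DESeq2 and 3 with limma-voom), with sums of 640 to 762 and 663 to 708 CPM. Schwann cell and satellite cell markers gave 0 calls of 7 and of 5 with each of the 3 tools (0 and 1 at an unadjusted p below 0.05). Of 8 fibre markers 2 fell, Pvalb and Atp2a1, while 5 fell without the tendon-rich libraries and DESeq2 called 6 and limma-voom 5. Their sum went from 159698 to 173937 CPM in EV_DOX to 132047 to 148470 CPM in DUX_DOX. Of the cartilage and bone list only 2 genes were in the table, with a median log2 fold change of 1.27, and 1 of them was called. It was Sox9, a regulator of cartilage collagens, which rose by 2.27 (SE 0.28, adjusted p = 5.59e-05), from 2.56, 2.56 and 1.25 CPM to 9.60, 13.3 and 7.96 CPM. The part of these cell types in the collagen results was not tested.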

How the data were processed

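Per the submitters' processing notes, the tools were bcl2fastq (2.17.1.14), then STAR, with featureCounts for counting, and the build GRCm38. Their other versions, the annotation and the strand setting are unstated. The deposited values are raw counts per gene, and all 12 columns were mapped to groups by name. From them, 12751 genes passed edgeR's filterByExpr. They were tested in R 4.3.3 with edgeR 4.0.16 (TMM, 1 mean per group over all 12 libraries, quasi-likelihood F test, Benjamini-Hochberg, threshold 0.05, prior count 0.125), a script tested on simulated data. DESeq2 1.42.0 and limma 3.58.1 (voom) were alternatives. SE is the log2 fold change over the root of F. CPM used TMM library sizes, and lengths and coordinates came from GENCODE M21. Libraries of a group differed beyond sampling noise (chi-square per degree of freedom 4.89 to 25.9). The chains, classes, companion lists and libraries left out were chosen with earlier results of these data known. Chains named in the text are those called in any comparison, the 3 fibrillar, 3 basement membrane and 4 other chains highest per length, and the junction chains Col13a1 and Col22a1, plus up to 3 of the smallest p per list. Others were named for their values or class. Replicate numbers were not taken as pairs. A member of the basement membrane partner list is not reported here.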

Additional observations from a re-analysis of the deposited data

Results flagged for a closer look

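The effect of the Dux vector on Col8a1 differed between the chows by 2.97 on the log2 scale (SE 0.45, adjusted p = 0.000851 by edgeR's interaction test), with DUX_DOX at 35.7, 34.1 and 48.5 CPM and the other 9 libraries at 3.68 to 11 CPM. It was the only chain of 36 that passed this test of a difference between groups.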

How the results depend on the processing

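Alternatives were other scaling (RLE, upper quartile), no filter, DESeq2, limma-voom, blocks, a tenocyte covariate, fits on the compared groups and left-out libraries. For DUX_DOX against EV_DOX (4 higher, 4 lower), the higher count was 11 with the covariate, 7 without EV 3 and EV_DOX 1 and 1 to 7 with 1 library left out. The lower count was 2 with limma-voom, 1 without those 2 libraries and 0 to 6 with 1 left out. For DUX_DOX against DUX (4 and 1), the higher count was 15 on the compared groups and 2 to 9 with 1 library left out, and the lower count 2 with RLE, upper-quartile and DESeq2, 3 with the covariate, 5 on the compared groups and 1 to 3 with 1 left out. DUX against EV gave 0 to 1 lower (1 without EV 2). For the interaction, DESeq2 gave 2 higher, leave-one-out fits 1 to 6 (6 without EV 2 or EV_DOX 1), and the covariate 1 lower.

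Deviations of same-numbered libraries correlated by -0.42 to 0.20 over all pairs of groups, with 4 of 18 pairs over 0.1. Both ends were EV against EV_DOX, groups on different chows, which cannot share an animal. Same-numbered pairs of the 2 vectors on one chow correlated by -0.11 to 0.18. These correlations cannot tell whether the numbers mark animals, and the numbers were not taken as pairs. With a replicate block, the lower count of DUX_DOX against DUX was 2, and the calls against EV_DOX stayed at 4 and 4. With the replicate number within each chow as a block, which fits opposite limbs of an animal if numbers mark animals, the calls against EV_DOX were 3 higher and 5 lower: Col27a1 and Col6a5 lost theirs, and Col11a2 and Col2a1 gained one.

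Uncalled log2 fold changes changed sign. Against EV_DOX, the covariate gave 0.026 for Col13a1, 0.36 for Col1a1 and 0.22 for Col1a2, and the block of replicates within chow 0.0080 for Col1a1. With libraries left out, Col13a1 ranged from -0.73 to 0.24, Col1a1 from -0.93 to 0.61, Col1a2 from -1.11 to 0.47 (the highest each time without EV_DOX 1, with or without EV 3), Col15a1 from -0.018 to 0.47, Col4a1 from -0.15 to 0.31 and Col4a2 from -0.097 to 0.32 (the lowest each time without EV_DOX 3). Col4a1 was -0.036 without DUX_DOX 2. Against DUX, the covariate gave -0.37 for Col13a1, -0.16 for Col1a2 and -0.13 for Col24a1. With 1 library left out, Col13a1 ranged from -0.21 (without DUX 3) to 0.35 and was -0.12 without DUX_DOX 1, and Col24a1 ranged from -0.17 (without DUX 2) to 0.33 and was -0.03 without DUX_DOX 2. The cause was not tested. Col8a1 kept its call in every fit run. Errors rest on 3 libraries a group, on fewer where libraries were left out, and rare chains such as Col6a5 and Col2a1 on few counts.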
